A study of Mus musculus with 18 samples.

Results

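Wnt, Fgf, Notch and hedgehog proteins are the signals by which neighbouring embryonic cells instruct each other. Wnt, Fgf and hedgehog ligands are secreted, whereas Notch ligands such as Dll1 sit on the membrane of the adjacent cell. Wnt ligands bind Fzd receptors and signal through the Dvl proteins to Ctnnb1 (beta-catenin), Fgf ligands activate the Fgfr receptor kinases, Notch receptors are cut and join Rbpj on Hes genes, and hedgehog ligands bind Ptch1 and act through the Gli factors. At midgestation these pathways pattern the neural tube, the somites, the pharyngeal arches and the heart.

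The members were the probe sets annotated to a single gene whose symbol starts with Wnt, Fzd, Sfrp, Dvl, Fgf, Notch, Dll or Jag and a digit, or with Fgfr, or is 1 of a short list of effectors (Ctnnb1, Lef1, Tcf7, Shh, Ihh, Dhh, Ptch1, Smo, Gli1, Gli2, Gli3, Hes1 and Rbpj). A probe set is a group of oligonucleotide probes read as 1 intensity. The rule found 74 probe sets for 59 genes among 13057 probe sets, with 39 on array type a and 35 on array type b, and 11 of the genes had more than 1 probe set. By role they were 38 ligand, 23 receptor and 13 other probe sets. The ligand role follows the gene name. It takes in Fgf11 and the related Fgf12, Fgf13 and Fgf14, intracellular proteins not known to activate Fgf receptors. The rule also takes in Fgfr1op2, a fusion partner of the receptor gene and not a receptor itself. Other genes of the rule, such as the Jag ligands, Smo, Gli1 and Tcf7, had no probe set of their own name and were not analysed here.

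Mouse embryos were taken at embryonic day 9.5, and total RNA of their middle portion, of 3, was hybridised. The groups were embryos null for Csx (Nkx2-5, a homeobox factor of the early heart), het embryos with 1 mutant allele and wt embryos, with 3 arrays per genotype on each of the 2 array types and 18 arrays in all. The labels give no strain, no allele design, no litter and no somite stage, and do not tell whether RNA of single or pooled embryos was used. The p-values therefore reflect how much these samples vary, which may be technical variation alone. Null arrays are numbered 2, 6 and 8a on type a and 2, 6 and 9b on type b, het arrays 3, 4 and 8, and wt arrays 1, 5 and 7, and values are given in that order. The mutated gene itself had no annotated probe set, and the genotype was not checked through its level.

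The deposited intensities include negative values, since background was subtracted. A floor of 375.1 on type a and 523.1 on type b, at 2 times the noise, marks what counts as measured here, and tests were run for probe sets brighter than the floor on 3 or more of their 9 arrays. All folds are of floored values. Near the floor they can be smaller than the change in intensity, or differ from it in sign. Null arrays 8a and 9b stood apart in RNA quality. Signal from the 3' end of actin over that from its 5' end, which is high where RNA is shortened, was 2.5 on 8a and 2.28 on 9b, while all other arrays lay between 0.849 and 1.41. In whole tissue, fewer cells of a type and less RNA per cell cannot be told apart. Cross-hybridisation between members of 1 family was not tested.

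Most ligands lay under the floor. Of the 38 ligand probe sets 6 were tested (15.8%), 28 exceeded the floor on no array, and 2, for Wnt1 and Fgf15, did so on all 9. Of the 23 receptor probe sets 16 were tested (69.6%) and 10 exceeded the floor on all 9 arrays. Over all 74 members 35 were tested (47.3%), for 29 genes, against 53.1% of all probe sets. Of the 39 untested members 33 were never above the floor, 4 were above it on 1 array and 2 on 2 arrays. The design of the probe sets and a truly low level cannot be told apart for these, and the share also differed by array type, with 25 of 39 members tested on type a but 10 of 35 on type b.

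**Figure D1:**
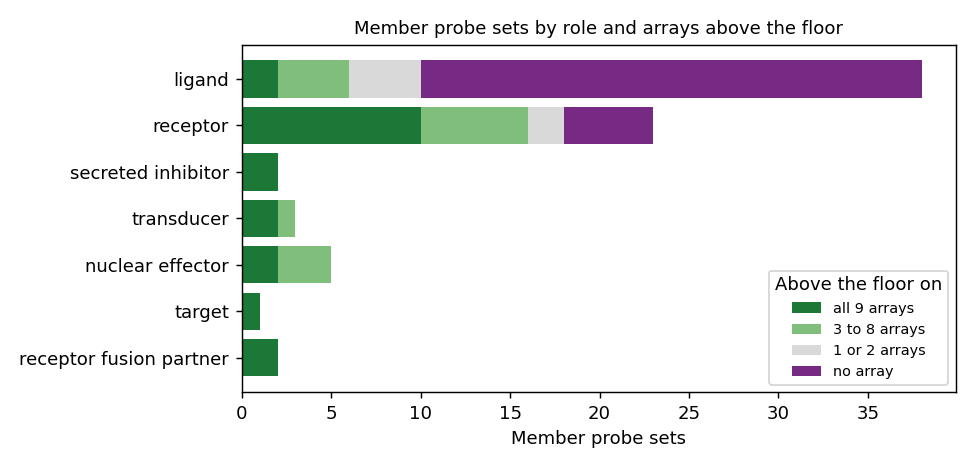
Number of member probe sets (x axis) by role (y axis), split by the number of the 9 arrays of their type on which they exceeded the floor of intensity. Of the 38 ligand probe sets 28 were above the floor on no array, whereas 10 of the 23 receptor probe sets were above it on all 9.

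The hedgehog ligands were not measured in any genotype. Shh, the ligand of notochord and floor plate, read -192.4, -150.4 and -409.6 in null, -189.1, -114.4 and -392.4 in het, and -183.8, 99.8 and -143.3 in wt. All 5 probe sets of Shh, Ihh and Dhh stayed under the floor on every array. Ptch1, the hedgehog receptor and itself a target of the pathway, read -462.0, -160.6 and -472.3 in null, -220.7, -61.7 and -241.9 in het, and -416.6, -343.7 and -242.8 in wt. These probe sets gave no measured level in any genotype, so the hedgehog ligands and Ptch1 were not compared.

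Several ligands known for tissues near the heart were also under the floor on all arrays. Among them were Fgf10, a ligand of the second heart field, with 74.8 to 178.9 over the 9 arrays, Wnt11, a ligand of the early heart outflow region, with -822.1 to 520.0, and Wnt5a, a ligand of non-canonical Wnt signalling, with -67.2 to 478.6. Fgf8, an Fgf of the pharyngeal region, exceeded the floor on 1 array, null 2, at 403.8, and lay between 83.7 and 329.1 on the others. Fgf4 exceeded the floor of type b through 1 of its 2 probe sets, on null 6 (621.6) and null 9b (532.8) but on no het or wt array, where it ran to 501.9 and 373.1. Wnt7b exceeded it on het 3 (408.8) and wt 5 (457.8), and the dimmer probe set of Fzd8 on null 2 alone (674.4). None of these probe sets entered a test.

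No member passed an adjusted p of 0.05 in null against wt embryos (limma, moderated test with Benjamini-Hochberg adjustment over all 6935 tested probe sets), where the share called over all of them was 0.692%, with 0.505% higher and 0.187% lower in null. At an unadjusted p under 0.05 there were 6 of 35 members (17.1%), against 11.2% of all tested probe sets. Of these 6 Dvl2 had a positive log2 fold change, and Fgfr3, Sfrp2, Dll1, Sfrp1 and Notch1 had negative ones. The floored null and wt values did not overlap for 7 members (20%), against 15.4% of all tested probe sets. Of these, 3 members were higher in null (all tested probe sets: 7.24%) and 4 were lower (8.19%). The median log2 fold change was -0.08 over the 35 members, with 14 positive and 21 negative, and -0.03 over all tested probe sets. For the 16 receptors it was -0.01 with 7 positive and 9 negative, and for the 6 of the ligand role it was 0.07 with 3 in each direction. These 6 include Fgf11 at 0.48. Without Fgf11 the negative values outnumber the positive ones, so the sign of the ligand median rests on it. The SE of a member's log2 fold change ran from 0.15 to 0.529 with a median of 0.263.

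**Figure D2:**
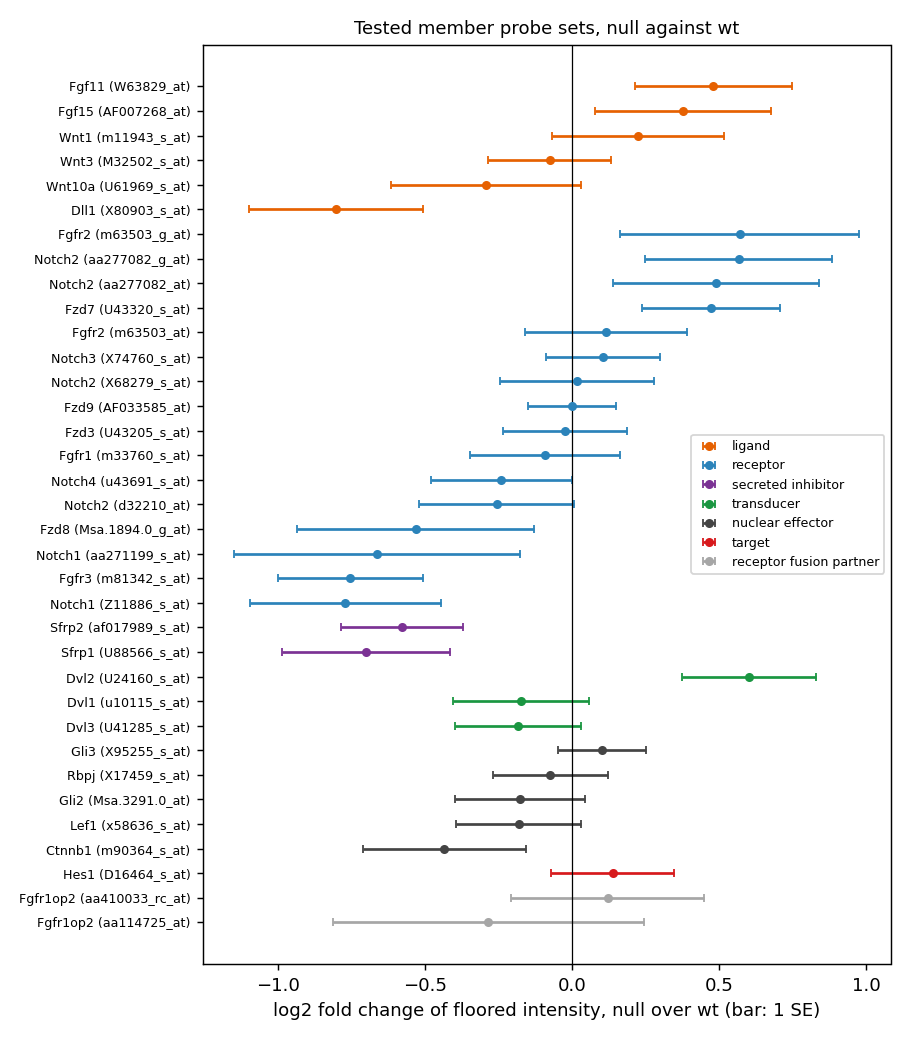
Fitted log2 fold change of null over wt (x axis) for the 35 tested member probe sets (y axis), coloured by role, with bars of 1 SE. Values run from -0.80 for Dll1 to 0.60 for Dvl2, and none passed the adjusted threshold.

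The secreted Wnt inhibitors were among the lowest members in null embryos. Sfrp1, which binds Wnt ligands outside the cell, read 1854.0, 1826.7 and 864.2 in null, 2447.9, 2753.9 and 3101.5 in het, and 1942.7, 2628.0 and 2455.2 in wt. Every null array was below every het and every wt array, and the lowest null value was that of 8a. The log2 fold change of null over wt was -0.70 (SE 0.286, limma adjusted p = 0.381), and without null 8a and 9b it was -0.34 (adjusted p = 0.525). Against het it was -0.95 (SE 0.286, adjusted p = 0.136), and -0.58 without those arrays.

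Sfrp2, the related inhibitor, read 2389.8, 1918.0 and 1825.2 in null, 3061.4, 3796.0 and 2483.3 in het, and 2880.2, 3621.6 and 2672.6 in wt. Here too the 3 null arrays were the 3 lowest of the 9. The mean was 2044 ± 303 in null, 3114 ± 658 in het and 3058 ± 499 in wt (SD, n = 3 each). The log2 fold change of null over wt was -0.58 (SE 0.207, limma adjusted p = 0.308), and without null 8a and 9b it was -0.50. Over 20 alternative settings it ran from -0.70 to -0.45 and never passed. Another secreted inhibitor of Wnt ligands, Frzb, which the rule leaves out, had -0.44 on the same log2 scale (SE 0.207, adjusted p = 0.464).

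The Wnt receptors and their transducers differed in sign. Dvl2, which relays the signal from Fzd receptors, read 2010.6, 2137.6 and 2980.5 in null, 1702.6, 1693.6 and 1717.6 in het, and 1953.3, 1282.5 and 1461.0 in wt. All null arrays were above all others, but null 2 exceeded wt 1 only slightly. The log2 fold change of null over wt was 0.60 (SE 0.228, limma adjusted p = 0.341), and 0.43 without null 8a and 9b. The other Dvl genes had negative values, -0.17 for Dvl1 (adjusted p = 0.866) and -0.19 for Dvl3 (adjusted p = 0.833).

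The Dvl2 promoter is shown because Dvl2 had the highest fold change among the members with all arrays, and the list of hypoxia and glycolysis genes was high in the same embryos. A link between these was not tested. Without null 8a and 9b the log2 fold change of Dvl2, 0.43, was below those of an Fgfr2 probe set (0.73) and Fzd7 (0.53). In the window from 250 bases before to 50 bases after the start (RefSeq, GRCm38.p6, chr11:70000342-70000641, plus strand), the letters ACGTG, the core of the hypoxia response element, occur 8 times over both strands. The capitals mark them, and CACGTG holds a match on each strand that overlap.
Dvl2: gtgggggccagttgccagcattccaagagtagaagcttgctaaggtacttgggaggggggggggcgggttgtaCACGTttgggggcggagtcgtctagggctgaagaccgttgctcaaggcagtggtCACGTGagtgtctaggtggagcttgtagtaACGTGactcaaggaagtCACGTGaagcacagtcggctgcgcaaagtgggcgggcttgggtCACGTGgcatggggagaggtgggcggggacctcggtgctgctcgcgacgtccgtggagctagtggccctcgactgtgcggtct
The motif was chosen after the values were seen. It occurs in 19.6% of 32851 promoter windows of the same length and in 19.4% of the 62 windows found for 45 member genes. These shares count windows with any match and do not compare the number of matches. A match is a description of the letters, not a binding site.

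Fzd7, a Wnt receptor, read 717.9, 407.2 and 481.3 in null, 363.8, 564.3 and 538.4 in het, and 247.6, 367.8 and 356.2 in wt. It exceeded the floor on all 3 null arrays and on no wt array, so its null level was at least 1.39-fold higher (log2 fold change 0.47, SE 0.236, limma adjusted p = 0.494). Het arrays overlapped both, with 2 of 3 above the floor.

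Fzd9, another Wnt receptor, read 311.4, 158.2 and 303.7 in null, 584.7, 467.5 and 518.7 in het, and 324.3, 367.3 and 376.1 in wt. The het arrays were the highest, all null arrays were under the floor, and 1 wt array exceeded it by little. In floored values the estimated fold of het over null was 1.39 (log2 fold change of null over het -0.47, SE 0.151, limma adjusted p = 0.157). The log2 fold change of het over wt was 0.47 (unadjusted p = 0.00909, adjusted p = 1).

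Of the remaining Wnt receptors, Fzd8 had -0.53 (SE 0.403) through its tested probe set and Fzd3 had -0.03 (SE 0.212) for null over wt. Fzd4 was never above the floor, and Fzd6 only on het 3 at 438.2. Among the ligands, Wnt1, a ligand of the dorsal neural tube, averaged 610.7 ± 156 in null, 644.8 ± 145 in het and 524.4 ± 155 in wt (SD, n = 3 each). Wnt3 and Wnt10a had log2 fold changes of -0.08 and -0.29 (SE 0.209 and 0.323). For each of these ligands the groups overlapped.

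Ctnnb1, the central effector of canonical Wnt signalling, read 4051.2, 5077.3 and 2446.3 in null, 4936.1, 6069.6 and 4060.6 in het, and 4003.6, 6815.1 and 4560.1 in wt. Its genotypes overlapped, and the log2 fold change of null over wt was -0.44 (SE 0.278, limma adjusted p = 0.614), and -0.14 without null 8a and 9b. Lef1, the nuclear partner of Ctnnb1, read 562.9, -183.4 and -142.2 in null, 20.5, 756.3 and 170.3 in het, and 821.5, 119.1 and 22.4 in wt. It exceeded the floor on 1 array of each genotype, and no genotype stood apart (log2 fold change of null over wt -0.18, SE 0.212, adjusted p = 0.834).

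**Figure D3:**
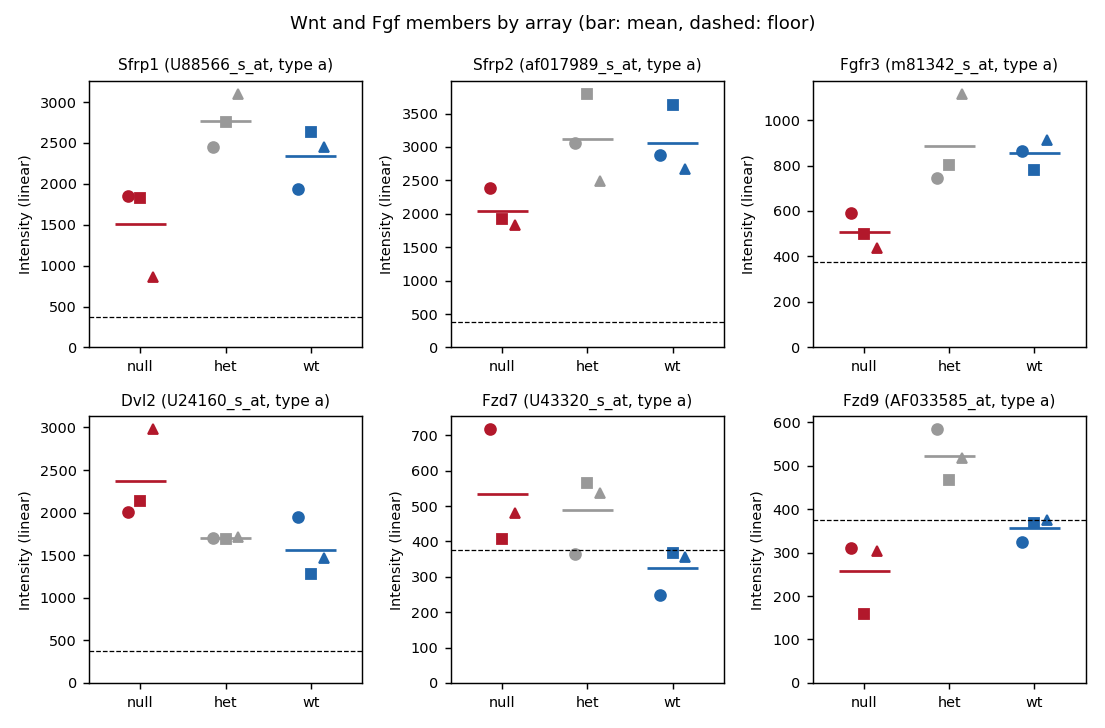
Intensity on a linear scale (y axis) of 6 Wnt and Fgf members in null, het and wt arrays (x axis), with 1 point per array, a bar at the mean and a dashed line at the floor. Null arrays lie lowest for Sfrp1, Sfrp2 and Fgfr3 and highest for Dvl2, and het arrays lie highest for Fzd9.

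Among the Fgf receptors Fgfr3, a receptor kinase of neural and skeletal progenitors, had the smallest p of the members in null against wt. It read 589.4, 496.9 and 438.1 in null, 744.3, 801.9 and 1115.6 in het, and 864.6, 780.9 and 913.3 in wt. The highest null value was below the lowest het and the lowest wt value. The log2 fold change of null over wt was -0.75 (SE 0.247, unadjusted p = 0.0104, limma adjusted p = 0.255), with a 95% interval of -1.30 to -0.21. It was -0.65 without null 8a and 9b, and -0.79 against het (adjusted p = 0.149).

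For the other Fgf receptors the null and wt arrays overlapped. Fgfr1, the receptor of mesoderm, read 1481.5, 1958.4 and 2196.0 in null, 2524.3, 2762.8 and 2268.4 in het, and 1346.1, 2477.4 and 2306.3 in wt. Its het arrays were all above the null arrays, while wt arrays spanned both. Null over wt was -0.09 on the log2 scale (SE 0.255, limma adjusted p = 0.932), and -0.21 without null 8a and 9b.

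Fgfr2, a receptor of epithelia, was read by 2 tested probe sets named after the same sequence. The first read 1035.2, 952.3 and 594.4 in null, 847.0, 896.4 and 636.7 in het, and 755.7, 818.5 and 746.0 in wt. The second read 2484.2, 2438.2 and 1771.2 in null, 2269.9, 2663.0 and 1876.9 in het, and 1908.0, 2564.7 and 670.7 in wt. In the second, wt 7 was far below all other arrays. The log2 fold changes of null over wt were 0.12 (SE 0.276) and 0.57 (SE 0.406), or 0.36 and 0.73 without null 8a and 9b, and het over wt had 0.02 and 0.60. A further 2 probe sets of Fgfr2 and the probe set of Fgfr4 were never above the floor. Fgfr1op2, which shares only part of its name with the receptors, had 2 tested probe sets with log2 fold changes of null over wt of -0.29 and 0.12 (SE 0.529 and 0.328), or 0.08 and 0.39 without null 8a and 9b. The first read 1679.1, 656.0 and 494.1 in null, 1371.1, 1047.9 and 451.2 in het, and 594.4, 1449.8 and 1142.6 in wt. The second read 1148.3, 1243.2 and 677.6 in null, 922.4, 787.3 and 1416.3 in het, and 848.6, 768.3 and 1156.5 in wt, and both spread widely within each genotype.

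Counted in the ligand role by its name, Fgf11 is an intracellular member of the family that is not known to activate Fgf receptors. It read 681.7, 650.8 and 988.5 in null, 1004.8, 286.5 and 248.1 in het, and 348.6, 591.1 and 172.6 in wt. All null values exceeded all wt values, but het 3 was higher than any of them. Null over wt was 0.48 on the log2 scale (SE 0.267, limma adjusted p = 0.544), and 0.29 without null 8a and 9b. Its second probe set exceeded the floor on null 6 alone, at 700.6. Fgf15, an Fgf of the midbrain, hindbrain and pharyngeal region, averaged 1459 ± 245 in null, 1475 ± 391 in het and 1153 ± 350 in wt (SD, n = 3 each), with overlapping groups.

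In the Notch pathway Dll1 and Notch1 had negative fold changes in null embryos, and the target Hes1 had a small positive one, none past the threshold. Dll1, the ligand of neural progenitors and presomitic mesoderm, read 694.4, 800.5 and 103.5 in null, 913.0, 1178.1 and 1463.0 in het, and 1005.0, 1546.4 and 992.8 in wt. Null values were all below het and wt values, and 9b was under the floor. The log2 fold change of null over wt was -0.80 (SE 0.296, limma adjusted p = 0.327), -0.63 without null 8a and 9b, and -0.81 against het (adjusted p = 0.212).

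Notch1 was read by a probe set on each array type. On type b it read 1192.9, 897.9 and 588.8 in null, 1295.7, 1314.0 and 969.4 in het, and 1114.0, 1667.9 and 1686.4 in wt. Null 2 lay above wt 1, and the log2 fold change of null over wt was -0.77 (SE 0.325, unadjusted p = 0.0368, limma adjusted p = 0.405). Without null 8a and 9b it was -0.50 (adjusted p = 0.549). On type a it read -189.1, 699.6 and 149.1 in null, 395.5, 708.0 and 1098.1 in het, and 1393.0, 262.0 and 750.0 in wt. The scatter within each genotype was wide there, and null over wt was -0.66 on the log2 scale (SE 0.485, adjusted p = 0.674).

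Notch2 had 4 tested probe sets, which did not point one way. The 2 brightest, named after the same sequence on type a, had log2 fold changes of null over wt of 0.57 and 0.49 (SE 0.318 and 0.351), another on type a had -0.26 (SE 0.264) and the one on type b had 0.02 (SE 0.263). The brightest read 9711.8, 8477.0 and 11458.4 in null, 7724.1, 8193.4 and 4794.1 in het, and 10404.4, 7253.1 and 3847.4 in wt. Its wt arrays covered nearly the whole range. Notch3, a receptor of vascular smooth muscle, averaged 5619 ± 1230 in null, 4780 ± 575 in het and 5152 ± 273 in wt (SD, n = 3 each). Notch4, a receptor of endothelium, averaged 548.5 ± 70.2 in null, 761.2 ± 87.0 in het and 654.7 ± 141 in wt (SD, n = 3 each), and its null and het arrays did not overlap.

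Hes1, a direct Notch target, read 3863.3, 2832.4 and 2444.7 in null, 1962.8, 2255.1 and 2789.0 in het, and 2971.4, 2418.6 and 2797.8 in wt. All genotypes overlapped, with a log2 fold change of null over wt of 0.14 (SE 0.210, limma adjusted p = 0.881), and 0.28 without null 8a and 9b. Rbpj, the DNA-binding partner of cut Notch, averaged 4031 ± 550 in null, 4247 ± 741 in het and 4231 ± 402 in wt (SD, n = 3 each). The 95% interval of its log2 fold change of null over wt ran from -0.51 to 0.36.

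**Figure D4:**
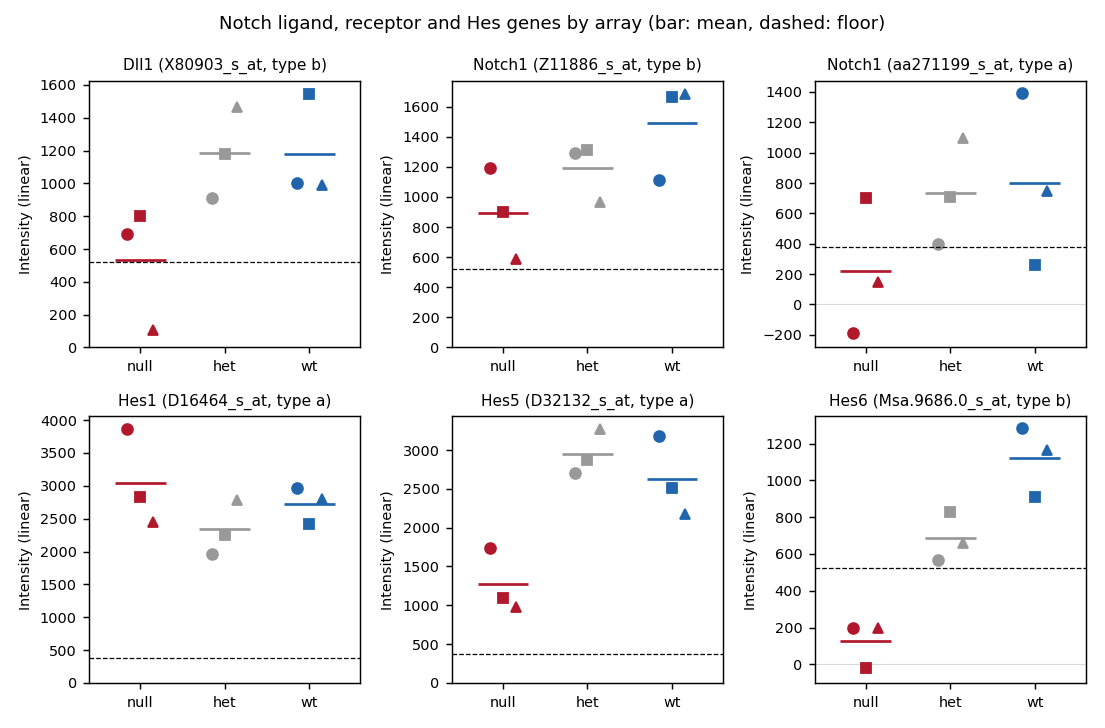
Intensity on a linear scale (y axis) of Notch pathway probe sets in null, het and wt arrays (x axis), with 1 point per array, a bar at the mean and a dashed line at the floor. Null arrays lie below all others for Dll1, Hes5 and the type b probe set of Hes6, whereas those of Hes1 overlap the other genotypes.

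The remaining genes of the 4 pathways, which the member rule leaves out, gave 42 probe sets, of which 31 were tested. None passed in null against wt (limma), where 0.692% of all tested probe sets did. At an unadjusted p under 0.05, 3 had a positive and 3 a negative log2 fold change, against 11.2% of all tested probe sets. The median was -0.13, against -0.03 over all tested probe sets. Floored null and wt values did not overlap for 4 of them (12.9%), all lower in null, against 15.4% of all tested probe sets. In null against het 1 passed, Hes5, against 1.15% of all tested probe sets. The lists of these genes were made with results of these data known.

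Hes5, the Notch target that keeps neural progenitors undifferentiated, read 1744.3, 1099.8 and 973.6 in null, 2701.6, 2877.2 and 3270.7 in het, and 3179.4, 2512.5 and 2180.2 in wt. The highest null value was below the lowest het and wt values. Hes5 fell by 1.26 on the log2 scale in null against het (SE 0.245, limma adjusted p = 0.0335). Against wt it was -1.07 (SE 0.245, adjusted p = 0.0820). The call against het is lost without any 1 of the replicates null 6, null 8a, het 3, het 4, het 8 or wt 5 (limma adjusted p from 0.0508 to 0.152). Each was left out on both array types where it has both. The log2 fold change without null 8a and 9b was -1.09 (adjusted p = 0.0755).

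The Hes5 promoter is shown because Hes5 alone among the genes of these pathways passed a test. In the window from 250 bases before to 50 bases after the start (RefSeq, GRCm38.p6, chr4:154960673-154960972, plus strand), the letters TGGGAA, the core bound by Rbpj, occur 2 times over both strands, marked in capitals, without overlap.
Hes5: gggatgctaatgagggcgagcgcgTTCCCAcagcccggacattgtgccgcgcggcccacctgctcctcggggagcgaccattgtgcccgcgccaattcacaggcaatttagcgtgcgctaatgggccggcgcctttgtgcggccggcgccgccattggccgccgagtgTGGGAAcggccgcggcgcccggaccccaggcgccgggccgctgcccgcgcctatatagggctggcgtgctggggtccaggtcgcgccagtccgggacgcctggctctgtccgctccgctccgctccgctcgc
These letters occur in 25.6% of the 32851 promoter windows and in 21% of the 62 windows of member genes, and the motif too was chosen after the values were seen.

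Hes6, a Hes protein that opposes Hes1 and promotes neuronal differentiation, had 2 probe sets that disagreed. On type b it read 199.5, -22.6 and 196.0 in null, 564.7, 827.5 and 660.7 in het, and 1282.7, 909.3 and 1167.7 in wt. All null arrays were under the floor and het arrays lay between. In floored values null was an estimated 2.12-fold lower than wt (log2 fold change -1.08, SE 0.214, limma adjusted p = 0.0502). Of 19 alternative settings 2 passed, quantile normalization (limma adjusted p = 0.0460) and the floor halved (adjusted p = 0.0125). In the others the adjusted p ran up to 0.311, and without null 8a and 9b it was 0.114. On type a it read 1600.7, 1425.3 and 1925.0 in null, 1404.4, 1390.7 and 2101.8 in het, and 2608.6, 1348.2 and 2036.1 in wt, with overlapping groups (log2 fold change -0.23, SE 0.279, adjusted p = 0.840).

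Tle1, a corepressor recruited by Hes and Tcf proteins, read 866.5, 503.4 and 488.3 in null, 1582.2, 1626.9 and 1185.8 in het, and 1553.7, 1270.5 and 1072.7 in wt. Null values were all below the others (log2 fold change of null over wt -1.05, SE 0.296, limma adjusted p = 0.167). The other genes with small p had positive values. Dusp6, the phosphatase that Fgf signalling induces to dampen its own kinase cascade, read 7555.6, 6069.9 and 4461.5 in null, 3183.0, 3274.8 and 3124.6 in het, and 4826.1, 2421.4 and 3370.2 in wt.

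For Dusp6 null 8a was below wt 1, and the log2 fold change of null over wt was 0.79 (SE 0.248, limma adjusted p = 0.227). Map2k1, a kinase of the cascade below Fgf receptors, read 2114.5, 2379.0 and 898.8 in null, 1027.7, 1000.8 and 1190.7 in het, and 1073.6, 920.2 and 679.1 in wt. Null 8a lay within the het and wt range, and the log2 fold change of null over wt was 0.92 with it (SE 0.358, adjusted p = 0.350) and 1.36 without null 8a and 9b (adjusted p = 0.0574). Dlk1, a membrane protein related to the Notch ligands, read 10296.1, 11658.3 and 7393.7 in null, 4929.0, 7515.0 and 7175.1 in het, and 8703.8, 5338.0 and 5471.8 in wt. Its null over wt difference was 0.60 on the log2 scale (SE 0.241, adjusted p = 0.365).

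Markers of neural tube moved with several of these results. All 13 tested neural tube probe sets, of 21 listed, had a negative log2 fold change in null against wt, with a median of -0.90, and none passed. Over all tested probe sets 3675 of 6935 were negative. The neural tube probe sets were listed with earlier results of these data known. Their summed intensity was 9914 to 25399 in null, 24533 to 29444 in het and 23081 to 32117 in wt on type a, and 1355 to 2162 in null, 3182 to 4680 in het and 3240 to 6607 in wt on type b. Both Sox3 probe sets, Elavl3, Sox1 and Neurog1 were never above the floor, and Hes5 stands in this list as well as among the Notch genes. Not all genes named above for neural regions were lower in null. Wnt1 and Fgf15 had positive log2 fold changes of null over wt, 0.22 and 0.38, with overlapping groups. The part of neural tissue in the values of Sfrp1, Sfrp2, Fgfr3, Dll1, Notch1, Hes5, Hes6 and Tle1 was not tested. The part of shortened RNA on null 8a and 9b was not tested apart. These arrays also differed in a list of heart markers. Its median log2 deviation from the wt mean was 0.89 there, against -0.53 in null 2 and 0.07 in null 6. Leaving 8a and 9b out therefore removes both differences together.

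The list of hypoxia and glycolysis genes was higher in null, with 21 of 21 tested probe sets positive, 10 of which rose past the threshold, and a median log2 fold change of 0.89. Over all tested probe sets 3248 of 6935 were positive and 0.505% were called higher. The list was chosen with earlier results of these data known, so these counts describe it and test nothing. Its median deviation from the wt mean was 1.05, 1.08 and 0.89 in null replicates 2, 6 and the pair 8a and 9b, and -0.14 to 0.05 in het and wt. Against it the ligands had 0.18, 0.03 and -0.22 in null, and the receptors -0.09, -0.04 and -0.10. Both stayed within the range of the het and wt replicates, whereas the 2 Sfrp inhibitors had -0.33, -0.50 and -1.08 in null and -0.17 to 0.28 in het and wt. A part of hypoxia in the values of Dvl2 was not tested.

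**Figure D5:**
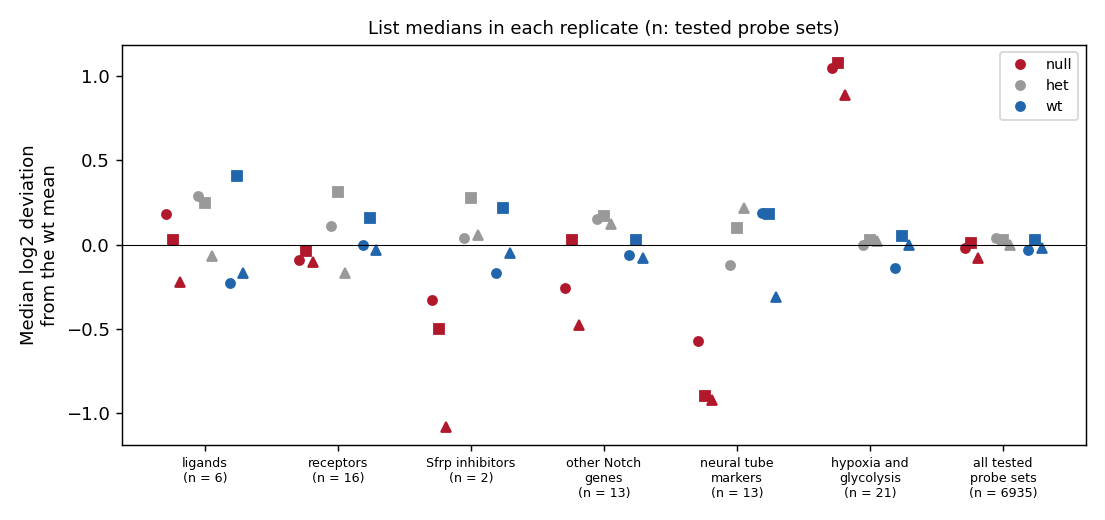
Median over the tested probe sets of each list of the log2 deviation from the wt mean (y axis), with 1 point per replicate in null, het and wt. Null points of ligands and receptors lie within the range of the het and wt points, the Sfrp inhibitors and neural tube markers lie lowest in null, and the hypoxia and glycolysis list lies at 0.89 to 1.08 in null.

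Loss of 1 allele was compared between het and wt embryos. No member passed in het against wt (limma), where 0% of all tested probe sets did. At an unadjusted p under 0.05 there was 1 member (2.86%), Fzd9, against 1.7% of all tested probe sets. Floored het and wt values did not overlap for 3 members (8.57%), against 6.37% of all tested probe sets. All 3 were higher in het, where 3.73% of all tested probe sets were higher and 2.64% lower. They were Fzd9, Gli3 and Dvl1.

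Gli3, a hedgehog effector that acts mainly as a repressor, read 40.1, 666.1 and 414.8 in null, 642.6, 696.5 and 608.2 in het, and 374.6, 466.0 and 541.0 in wt. Het arrays were all above wt arrays, and null arrays spread over both. Het over wt was 0.29 on the log2 scale (unadjusted p = 0.0765, limma adjusted p = 1). Mean intensity was 373.7 in null and 460.5 in wt, while the floored log2 fold change of null over wt had the opposite sign, at 0.10 (SE 0.15). Dvl1, another Dishevelled gene, read 704.0, 694.7 and 687.0 in null, 1057.2, 988.9 and 1105.1 in het, and 651.7, 888.0 and 833.7 in wt. Its log2 fold change was 0.42 for het over wt (unadjusted p = 0.0970) and -0.59 for null over het (adjusted p = 0.242). Gli2, the main activator of the pathway, had a log2 fold change of 0.19 for het over wt and -0.18 for null over wt (SE 0.221).

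In null against het no member passed (limma), where 1.15% of all tested probe sets did, 0.735% higher and 0.418% lower in null. At an unadjusted p under 0.05 there were 6 members (17.1%), all lower in null, against 15.7% of all tested probe sets. They were Sfrp1, Fgfr3, Fzd9, Sfrp2, Dll1 and Dvl1. The floored values did not overlap for 10 members (28.6%), against 22.6% of all tested probe sets. Of these, 2 were higher in null (all tested probe sets: 9.99%) and 8 were lower (12.6%). The higher ones were Dvl2 and the brightest Notch2 probe set, and the lower ones were Sfrp1, Sfrp2, Fgfr1, Fgfr3, Fzd9, Dvl1, Dll1 and Notch4. With array weights 4 members passed, Sfrp1, Sfrp2 and 1 probe set of Notch2 lower and Hes1 higher in null, in a fit that called 678 of all tested probe sets. The null arrays are shared with the comparison to wt, so the recurrence of Sfrp1, Sfrp2, Fgfr3 and Dll1 in both is not independent.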

How the data were processed

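Total RNA of mouse embryos was read on 18 one-colour oligonucleotide arrays of 2 types. The deposited values are linear intensity per probe set, scaled and background-subtracted by the authors, as the values show. Software and scaling target: not given in the sources used here. Genes were named from the platform annotation, updated through RefSeq. Controls (61 per type) were left out. The authors' scaling was kept. Values under the floor (2 noise SDs, from the size of negative values) were set to it, log2 was taken, and probe sets above it on at least 3 of 9 arrays were fitted per type on all 9 arrays with limma 3.58.1 in R 4.3.3 (lmFit, eBayes with trend, two-sided), with Benjamini-Hochberg adjustment over both types together and a threshold of 0.05. The fit was tested on simulated data, with changes placed only in probe sets far above the floor. That run does not measure the power for dim members or for smaller folds. Samples were grouped by their titles.

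Values per array are given for the 8 members of smallest p in null against wt, the 5 of smallest p in each other comparison, members above the floor on all arrays of 1 genotype and under it on all of another, and Lef1, Hes1, Ptch1, Shh, Ctnnb1 and the Fgfr genes. Of the other pathway genes the 6 of smallest p are given. Members and lists were chosen with earlier results of these data known. Alternatives were quantile normalization, other floors and filters, fits of the compared genotypes only, no trend, array weights, adjustment per type and leaving out arrays. The array number, 3 per genotype and type, limits the precision. On type b, het 8 lacks 499 values, none of a member.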

Additional observations from a re-analysis of the deposited data

How the results depend on the processing

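No member passed in null against wt or het against wt under any of the 20 alternatives run, and none of the genes chosen by their p reversed its direction. In null against wt 14 of the 35 members reversed under at least 1 alternative. Without null 8a and 9b these were 3, a probe set of Fgfr1op2 (0.077, against -0.285 with all arrays), Fzd3 (0.036 against -0.025) and Notch3 (-0.056 against 0.104). Doubling the floor shrank Fgfr3 to -0.182, Dll1 to -0.188 and Tle1 to -0.296. In null against het, 0 members passed except with array weights, where 4 did. Among the other pathway genes in null against wt, 1 (Hes6) passed with quantile normalization and 1 with the floor halved, against 0 otherwise. In null against het the count of these, checked after its value was seen, was 1 in the reported fit, 0 with no filter on dim probe sets, 0 with only the compared genotypes in the fit, 0 without null 8a and 9b and 8 with array weights. Leaving out 1 replicate, with its arrays of both types where it has both, gave 0 to 1. The count was 0 for any 1 of null 6, null 8a, het 3, het 4, het 8 and wt 5. The cause of these moves was not tested. The receptor median log2 fold change of null over wt was -0.166 with the floor halved, 0.104 with it doubled and -0.047 with array weights. It was -0.137 to 0.094 when 1 replicate was left out, so its sign is not settled. The ligand median ran from -0.048 to 0.278 when 1 replicate was left out, with the highest value without wt 5. No paired analysis was possible because the null and het samples share only the number 8 and share none with wt. Signals near background limit the ligands most.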

Other observations

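Lef1 exceeded the floor on null 2, het 4 and wt 1, at 562.9, 756.3 and 821.5, and ran from -183.4 to 170.3 on the other 6 type b arrays. Afp, a marker of liver bud and visceral endoderm, was highest on the same arrays through its type b probe set, at 3641.9 in null 2, 3309.1 in het 4 and 3514.9 in wt 1. On the other type b arrays Afp read 705.9 and 668.0 in null, 473.6 and 438.4 in het, and 336.7 and 395.8 in wt. The match was not limited to Afp. The summed intensity of a list of limb mesenchyme markers on type b was also highest on these arrays. It was 21261 in null 2, 18368 in het 4 and 20863 in wt 1, and 10951 to 16696 on the others. These matches were noticed after the values were seen and were not tested.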
